A study of Mus musculus with 6 samples.

Results

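mmu-miR-137-3p, mmu-miR-138-5p, mmu-miR-153-3p, mmu-miR-383-5p, mmu-miR-7a-5p, mmu-miR-135a-5p and mmu-miR-135b-5p, written below without the species prefix, were listed together as microRNAs (miRNAs) enriched in neurons, of synapses and axon growth. For miR-383-5p no such role is described here. The members of the list were taken by name from a table of 1482 small RNA rows, and all 7 names were found. The libraries came from mouse spinal cord, 3 with the label control and 3 with the label SCI, for spinal cord injury. Control mice had a laminectomy at T10 and no cord injury. SCI mice had the same laminectomy and then a moderate contusion from a 10 g weight falling 20 mm. Tissue of about 1 cm around T10 was taken from all of them 2 days after surgery. The labels do not state strain or age. Each library is treated as 1 mouse, and if any mouse gave more than 1 library the p-values would measure technical spread.

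A microRNA is cut from a hairpin transcript, and 1 strand of the duplex, the named arm, is usually kept in the silencing complex while the opposite arm is degraded. The retained strand finds messenger RNAs mainly through its seed, bases 2 to 8, and lowers their translation and stability. In the nervous system miR-135a and miR-135b are known for promoting axon growth, with Klf4 as a target. miR-138 restrains dendritic spine size, and miR-137 acts in neuronal maturation. miR-153 and miR-7 both repress alpha-synuclein, and miR-7 binds the circular RNA Cdr1as.

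RefSeq entries (GRCm38.p6) matched 5 of the 7 names. These sequences are shown, 5′ to 3′ with the seed in capitals, because the seed separates the miRNAs into families and because a mature sequence made by several hairpins cannot be traced to one of them. miR-7b-5p is added as the relative of miR-7a-5p.
miR-135a-5p: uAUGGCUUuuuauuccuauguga
miR-153-3p: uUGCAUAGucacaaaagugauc
miR-137-3p: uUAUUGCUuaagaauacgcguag
miR-138-5p: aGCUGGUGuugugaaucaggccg
miR-7a-5p: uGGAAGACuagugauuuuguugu
miR-7b-5p: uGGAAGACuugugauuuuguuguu
The 5 seeds of the matched members differ from each other. miR-135b-5p and miR-383-5p are not among the entries compared, and miR-135b is by its name a relative of miR-135a. Among the entries, 1 other, miR-7b-5p, had the seed of miR-7a-5p, and none shared a seed with the other 4. miR-7a-5p (23 bases) and miR-7b-5p (24 bases) differ by A10U, counted from 1 at the 5′ end of miR-7a-5p, and by the last base of miR-7b-5p.

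The hairpins lie apart in the genome (GENCODE M21, GRCm38, the assembly that mm10 denotes). Mir137 is at chr3:118433857-118433929 (+) in an exon of the noncoding gene Gm26871. Mir153 is at chr12:117250817-117250885 (+) in an intron of Ptprn2, and over an intron of Gm5441 on the other strand. Mir383 is at chr8:38252133-38252202 (-) in an intron of Sgcz. Mir135b is at chr1:132198088-132198184 (+) in an intron of Lemd1 and of AC124108.1, both on the same strand. miR-135a-5p comes from Mir135a-1 at chr9:106154124-106154213 (+), in an intron of D030055H07Rik and over an exon of Glyctk on the other strand, and from Mir135a-2 at chr10:92072086-92072185 (-), in an intron of the noncoding gene Rmst. miR-138-5p comes from Mir138-1 at chr9:122682876-122682974 (+), in an exon of the pseudogene Gm47135, and Mir138-2 at chr8:94324311-94324381 (+), in an exon of the noncoding gene C78859. miR-7a-5p comes from Mir7-1 at chr13:58392779-58392886 (-), in an intron of Hnrnpk, and Mir7-2 at chr7:78888277-78888373 (+), which overlaps no other annotated gene.

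Total counts were 5568491 to 7360149 in the control-labelled against 7100472 to 8889977 in the SCI-labelled libraries. Injury miRNAs went against the labels: all 8 listed miRNAs of injury and leukocytes, miR-21a-5p and miR-146a-5p the most abundant, were lower in the SCI-labelled group by edgeR. Their summed level was 78032 to 133133 CPM (counts scaled by TMM to a library of 1000000 reads) in the control-labelled against 12529 to 13750 CPM in the SCI-labelled libraries. The deposited columns of the SCI-labelled samples also have names beginning with Normal. Every direction below is therefore that of the labels as deposited, and which group was injured is not settled here. Control-labelled library 3 stood apart from its group, with skeletal muscle miRNAs at a summed 37774 CPM against 8283 and 11916 CPM in libraries 1 and 2. Its listed astrocyte miRNAs were also higher, at 7693 against 3871 and 4282 CPM. Erythroid miRNAs were lower there, at 9426 against 32718 and 26283 CPM, and endothelial ones at 12211 against 28514 and 21136 CPM. The log2 change of each of the 7 miRNAs is given with and without control-labelled library 3.

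All 7 miRNAs had a higher fitted mean in the SCI-labelled libraries, and 4 passed the test: miR-135b-5p, miR-153-3p, miR-135a-5p and miR-383-5p. Over all 614 rows tested, 39.4% passed, 16.3% higher and 23.1% lower (edgeR quasi-likelihood test, Benjamini-Hochberg adjusted p under 0.05). The members' median log2 change was 0.79, against -0.07 over all rows tested, of which 294 of 614 had a log2 change above 0. In 5 of the 7 the groups did not overlap, with the SCI-labelled libraries above, which held for 23.3% of the rows tested, while 28% had them below and none of the 7 did. None of the 7 was lower by edgeR, DESeq2 or limma voom with library quality weights (called limma voom here). Over all rows they tested, 142 of 614, 141 of 919 and 159 of 614 were lower. DESeq2 called 4 of the 7 higher and limma voom 6, against 11.2% and 20% of all rows they tested. The members, and the lists compared below, were chosen with earlier results of these data known. The comparisons with all rows are therefore descriptive and do not test the members as a set. Because whole tissue was measured, a change in the number of neurons and a change in RNA per neuron cannot be told apart.

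**Figure D1:**
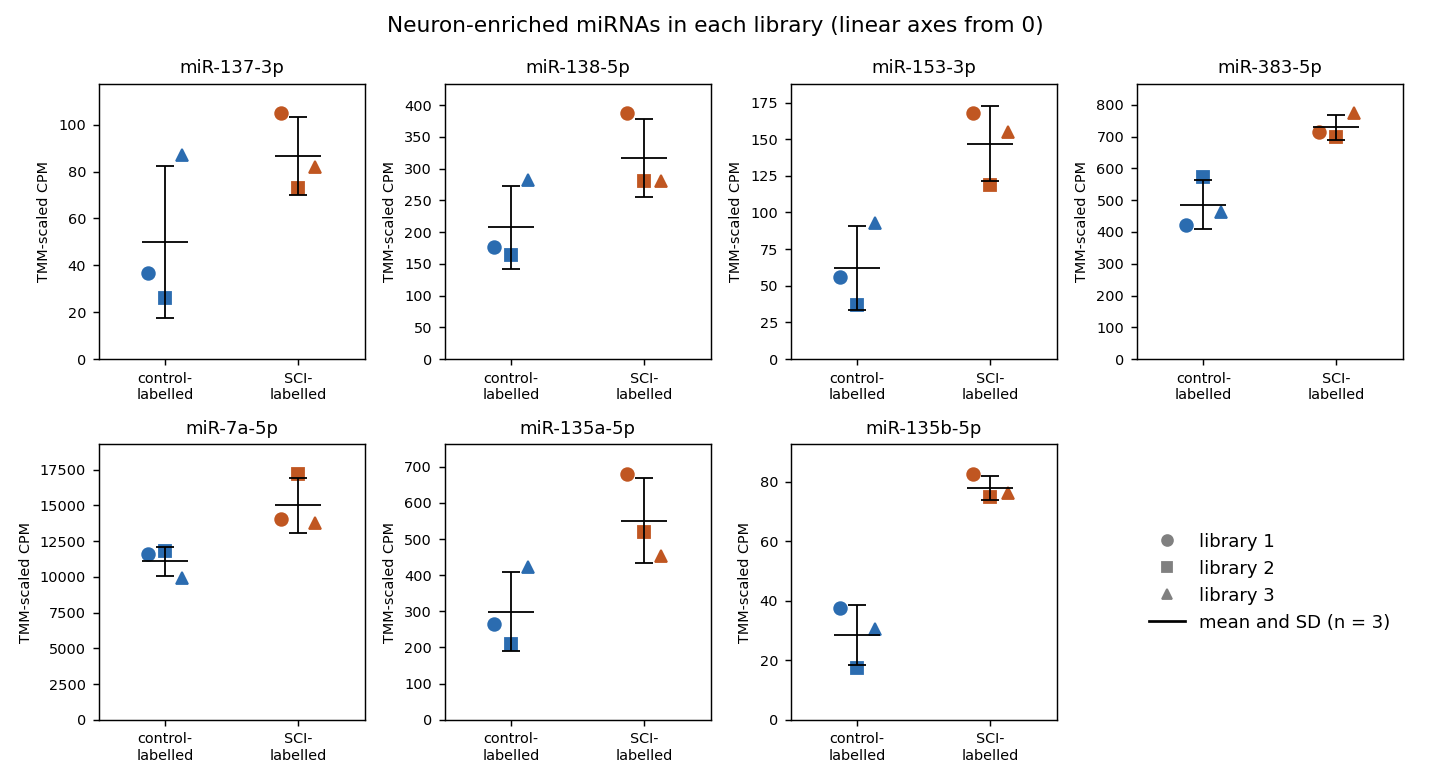
TMM-scaled CPM of the 7 miRNAs in each library on linear axes from 0, with symbols for library numbers and bars for the mean and SD (n = 3) of each labelled group. In miR-135b-5p, miR-153-3p, miR-135a-5p, miR-383-5p and miR-7a-5p the groups do not overlap, and in miR-137-3p and miR-138-5p control-labelled library 3 (triangle) sits among the SCI-labelled libraries.

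The axon growth miRNA miR-135b-5p had the largest difference of the 7. It stood at 37.5, 17.6 and 30.6 CPM in control-labelled libraries 1, 2 and 3, against 82.6, 74.9 and 76.1 CPM in SCI-labelled libraries 1, 2 and 3. The SCI-labelled libraries lay close together, and every one was above every control-labelled library. It was 2.72-fold higher (log2 1.44, SE 0.28; edgeR adjusted p = 0.00453) and passed under all 19 alternative settings, with adjusted p-values up to 0.0226.

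Its paralog miR-135a-5p stood at 265, 210 and 423 CPM in the control-labelled against 680, 520 and 452 CPM in the SCI-labelled libraries. The groups did not overlap, but control-labelled library 3 came close to SCI-labelled library 3. It was 1.84-fold higher (log2 0.88, SE 0.29; edgeR adjusted p = 0.0437). The call was lost under 12 of 19 alternatives, including leaving out control-labelled library 1 (adjusted p = 0.0761) or 2 (0.133) or SCI-labelled library 1 (0.158), 2 (0.0672) or 3 (0.0711), and without control-labelled library 3 it was log2 1.25 (0.000715). There were 7.07, 12.0 and 13.8 reads of miR-135a-5p for each read of miR-135b-5p in the control-labelled libraries against 8.23, 6.94 and 5.94 in the SCI-labelled ones, and these ranges overlapped.

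miR-153-3p, a repressor of synaptic vesicle proteins and alpha-synuclein, stood at 56.0, 36.8 and 93.0 CPM in the control-labelled against 168, 119 and 155 CPM in the SCI-labelled libraries. Every SCI-labelled library was above every control-labelled one. It was 2.37-fold higher (log2 1.24, SE 0.34; edgeR adjusted p = 0.0200). Omitting SCI-labelled library 1 (adjusted p = 0.0681) or library 3 (0.0706) ended the call, which held in the other 17 alternatives.

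miR-7a-5p was by far the most abundant of the 7, with 90.6% of their reads in the control-labelled against 88.6% in the SCI-labelled group. Its levels were 11579, 11802 and 9920 CPM in the control-labelled against 14052, 17212 and 13764 CPM in the SCI-labelled libraries. The groups did not overlap, and control-labelled library 3 was here the lowest of the 6. The log2 difference of 0.44 (SE 0.18) had an edgeR adjusted p of 0.0843 and passed under 0 of 19 alternatives, in which adjusted p ran from 0.0627 to 0.269.

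Its relative miR-7b-5p, which differs at a base outside the seed, stood at 1658, 1782 and 1721 CPM in the control-labelled against 2893, 3207 and 2620 CPM in the SCI-labelled libraries. It was higher by log2 0.76 (SE 0.17; edgeR adjusted p = 0.00812). The number of miR-7a-5p reads per miR-7b-5p read was 6.98, 6.62 and 5.76 in the control-labelled against 4.86, 5.37 and 5.25 in the SCI-labelled libraries. The ratio was 6.46 ± 0.627 and 5.16 ± 0.267 (SD, n = 3 each) without overlap (exact two-sided permutation p = 0.1, the smallest that 3 against 3 libraries can give).

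miR-383-5p, which is best known from the testis, stood at 421, 573 and 464 CPM in the control-labelled against 715, 699 and 774 CPM in the SCI-labelled libraries. The groups did not overlap, and the SCI-labelled libraries had a coefficient of variation of 5.41%. It was higher by log2 0.59 (SE 0.19; edgeR adjusted p = 0.0413). The call was lost under 11 of 19 alternatives, among them leaving out control-labelled library 1 (adjusted p = 0.0796) or SCI-labelled library 1 (0.0972), 2 (0.0790) or 3 (0.123).

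miR-137-3p, the miRNA of neuronal maturation, stood at 36.8, 26.3 and 86.9 CPM in the control-labelled against 105, 72.9 and 81.9 CPM in the SCI-labelled libraries. Control-labelled library 3 was above SCI-labelled libraries 2 and 3, so the groups overlapped. The log2 difference of 0.79 (SE 0.41) did not pass (edgeR adjusted p = 0.173). Without control-labelled library 3 it was 1.49 (adjusted p = 0.000394), and it also passed with no filter on low counts (0.0416) and with limma voom (0.00528). In the other 16 alternatives it did not pass, and without control-labelled library 2 it was 0.47 (0.392).

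miR-138-5p, the dendritic spine miRNA, stood at 176, 164 and 283 CPM in the control-labelled against 387, 281 and 281 CPM in the SCI-labelled libraries. Control-labelled library 3 was level with the lower SCI-labelled libraries. The log2 difference was 0.61 (SE 0.27; edgeR adjusted p = 0.108). It was 0.94 without control-labelled library 3 (adjusted p = 0.00293), and it also passed with upper quartile scaling (0.0427) and with limma voom (0.0174). In the other 16 alternatives it did not pass, with adjusted p-values up to 0.322.

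**Figure D2:**
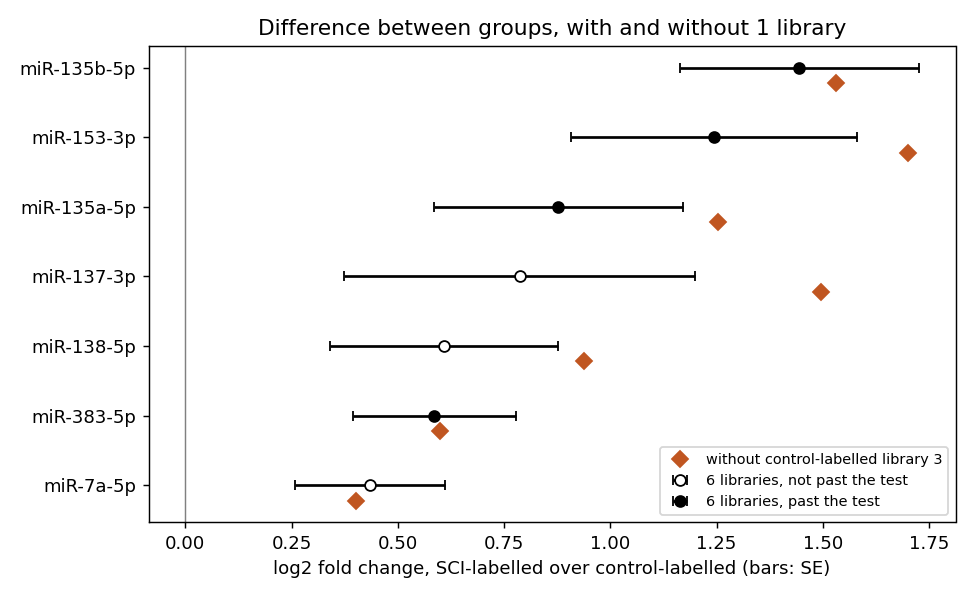
Log2 fold change of each miRNA, SCI-labelled over control-labelled, from edgeR. Circles are the fit to 6 libraries with SE bars, filled where the adjusted p was under 0.05, and diamonds are the fit without control-labelled library 3, which moves miR-137-3p from 0.79 to 1.49 and leaves miR-383-5p and miR-7a-5p within 0.05 of their place.

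The members divided by where control-labelled library 3 fell, a division made after their values were seen. In miR-137-3p, miR-153-3p, miR-135a-5p and miR-138-5p that library exceeded the mean of control-labelled libraries 1 and 2 by log2 0.73 to 1.46. In miR-135b-5p, miR-383-5p and miR-7a-5p the same value was -0.24 to 0.15. Without that library 6 of the 7 passed (edgeR), with log2 changes of 1.70 for miR-153-3p, 1.53 for miR-135b-5p and 0.60 for miR-383-5p, and miR-7a-5p at 0.40 did not. In that fit 152 of 634 rows tested were higher, against 100 of 614 with all libraries. Skeletal muscle miRNAs moved with library 3, as given above, and their summed level in the SCI-labelled libraries was 9817 to 20423 CPM. None of the 4 muscle miRNAs (miR-1a-3p and miR-133a-3p the most abundant) passed between the groups. With muscle, erythroid and injury miRNAs left out before scaling, 3 members passed and miR-135a-5p did not (edgeR adjusted p = 0.0521). There 91 of 595 rows tested were higher. The part of muscle, blood or other tissue in the values of library 3 was not tested.

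**Figure D3:**
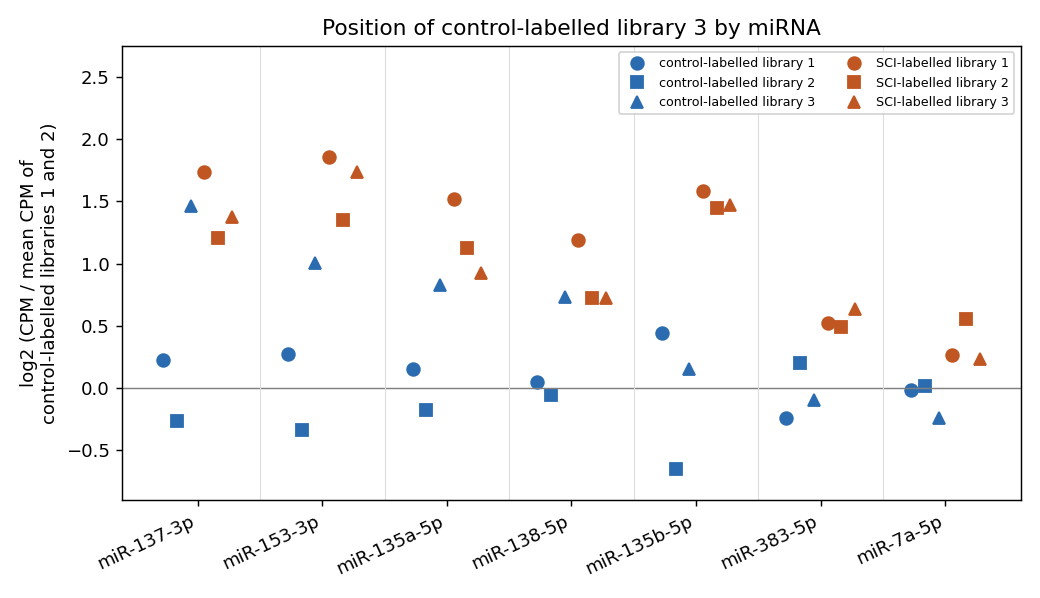
Log2 ratio of each library's CPM to the mean CPM of control-labelled libraries 1 and 2, for each of the 7 miRNAs. Control-labelled library 3 (blue triangle) is at 0.73 to 1.46 in the 4 miRNAs on the left and at -0.24 to 0.15 in the 3 on the right.

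The order of the 7 levels was the same in both groups: miR-7a-5p, miR-383-5p, miR-135a-5p, miR-138-5p, miR-153-3p, miR-137-3p and miR-135b-5p. Each read stands for 1 miRNA of nearly equal length, so no length term enters, while ligation preference in library making is not corrected. In the control-labelled group the ranges of miR-383-5p and miR-135a-5p overlapped, as did those of miR-135a-5p and miR-138-5p, of miR-153-3p and miR-137-3p, and of miR-137-3p and miR-135b-5p. In the SCI-labelled group the neighbours that overlapped were miR-137-3p and miR-135b-5p. Between group means, miR-7a-5p was 22.8-fold above miR-383-5p in the control-labelled against 20.6-fold in the SCI-labelled group.

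Of the 10 opposite arms of these hairpins in the table, 6 passed the filter on low counts, and 1 of these, miR-7a-2-3p, was higher, against 16.3% of all rows tested. Of the 6, 3 had a log2 change above 0, against 294 of all 614 rows tested, and the median was -0.02. The clearest contrast was between miR-135a-5p and the opposite arm of Mir135a-2, which has this sequence, seed in capitals.
miR-135a-2-3p: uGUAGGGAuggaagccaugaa
It stood at 58.9, 75.3 and 42.5 CPM in the control-labelled against 18.96, 43.7 and 30.2 CPM in the SCI-labelled libraries. This is the reverse of the order of miR-135a-5p, although SCI-labelled library 2 was slightly above control-labelled library 3. Its log2 difference was -0.93 (SE 0.34; edgeR adjusted p = 0.0569), and it passed in 11 of 19 alternatives. Of the omissions of 1 library it passed without control-labelled library 3 (-1.08, adjusted p = 0.00958) or SCI-labelled library 2 (-1.21, 0.0429). The other 4 omissions did not pass, with adjusted p of 0.121 and 0.176 when control-labelled 1 and 2 were dropped, and 0.186 (log2 -0.64) and 0.173 for SCI-labelled 1 and 3.

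Reads of miR-135a-5p over miR-135a-2-3p gave log2 ratios of 2.17, 1.48 and 3.31 in the control-labelled against 5.16, 3.57 and 3.90 in the SCI-labelled libraries. The groups did not overlap, and the mean ratio was 3.70-fold higher in the SCI-labelled group (exact two-sided permutation p = 0.1, the smallest possible, 0.16 adjusted over 8 hairpins). The log2 difference of 1.89 ran from 1.41 without SCI-labelled library 1 to 2.39 without control-labelled library 3. Almost all opposite-arm reads of miR-135a were of this copy, 99.1% ± 0.696 in the control-labelled against 98.9% ± 0.351 in the SCI-labelled group (SD, n = 3 each), so Mir135a-1 had few such reads in both. The reads of miR-135a-5p can come from Mir135a-1 and Mir135a-2, so the ratio does not give the arm balance of a single hairpin.

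At miR-138 the named arm was also higher relative to both opposite arms. Both ratios use the same miR-138-5p reads, which either hairpin can supply. The log2 ratio to miR-138-1-3p was 4.81 ± 0.645 in the control-labelled against 5.88 ± 0.162 in the SCI-labelled group, and that to miR-138-2-3p was 4.14 ± 0.344 and 4.83 ± 0.475 (SD, n = 3 each). Neither pair of groups overlapped (exact two-sided permutation p = 0.1 each, the smallest possible, 0.16 adjusted). The differences of 1.07 and 0.69 were smaller with 1 library left out, at 0.70 for miR-138-1 without control-labelled library 2 and 0.43 for miR-138-2 without SCI-labelled library 1. The opposite arms themselves had log2 changes of -0.46 and -0.07 and did not pass edgeR (adjusted p = 0.244 and 0.839).

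The hairpins of miR-7a can be told apart by their opposite arms, shown with the differing bases in capitals.
miR-7a-1-3p: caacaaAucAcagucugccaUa
miR-7a-2-3p: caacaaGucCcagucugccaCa
They differ by A7G, A10C and U21C, counted from 1 at the 5′ end of miR-7a-1-3p. miR-7a-2-3p, from Mir7-2, had 16, 14 and 27 reads in the control-labelled against 41, 36 and 42 in the SCI-labelled libraries. It was 1.84-fold higher (log2 0.88, SE 0.27; edgeR adjusted p = 0.0329). The call was lost in 12 of 19 alternatives, DESeq2 (adjusted p = 0.0827) and the omission of any library but control-labelled 3 among them. It was log2 1.04 (adjusted p = 0.0131) without control-labelled library 3. The adjusted p-values of the lost calls were 0.0604 and 0.0771 without control-labelled libraries 1 and 2, and 0.0944, 0.0882 and 0.0805 without SCI-labelled libraries 1, 2 and 3. miR-7a-1-3p, from the Hnrnpk intron, was at 26.3, 22.6 and 30.03 CPM in the control-labelled against 26.8, 28.2 and 25.5 CPM in the SCI-labelled libraries, with a log2 change of 0.03.

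The share of miR-7a-2-3p in the reads of both opposite arms was 8.89%, 10.1% and 9.57% in the control-labelled against 16.0%, 16.5% and 15.7% in the SCI-labelled libraries. The means were 9.51% ± 0.594 and 16.1% ± 0.404 (SD, n = 3 each), and no library of one group reached the other (exact two-sided permutation p = 0.1, the smallest possible). This share is a ratio within a library and does not depend on scaling. It describes the balance of the opposite arms and not which of the hairpins supplied miR-7a-5p. The log2 ratio of miR-7a-5p to miR-7a-1-3p was 8.72 ± 0.332 and 9.12 ± 0.115, and that to miR-7a-2-3p 11.9 ± 0.309 and 11.5 ± 0.0777 (control-labelled and SCI-labelled, SD, n = 3 each), without overlap in either (exact two-sided permutation p = 0.1 each, 0.16 adjusted). Without control-labelled library 3 the difference for miR-7a-1 fell from 0.40 to 0.22 and that for miR-7a-2 went from -0.45 to -0.63. For miR-138 the share of miR-138-2-3p was 61.4% ± 5.01 and 67.4% ± 4.94 (SD, n = 3 each), and the libraries overlapped.

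The remaining opposite arms had few reads. miR-137-5p had 73 reads over all libraries, miR-135b-3p 40, miR-383-3p 37, miR-135a-1-3p 18 and miR-153-5p 7. The log2 change of miR-137-5p was 0.69 (edgeR adjusted p = 0.219), and miR-7b-3p, the opposite arm of the relative, had 1 to 5 reads in a library. The log2 ratio of named to opposite arm was 5.08 ± 1.18 and 5.40 ± 0.421 for miR-137, 9.13 ± 1.11 and 10.1 ± 0.750 for miR-383, and 5.17 ± 0.784 and 6.23 ± 0.616 for miR-135b (control-labelled and SCI-labelled, SD, n = 3 each). All 3 overlapped between groups (exact two-sided permutation p = 0.8, 0.4 and 0.3). The difference of 0.93 for miR-383 was 0.32 without control-labelled library 3 and 0.50 without SCI-labelled library 3.

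**Figure D4:**
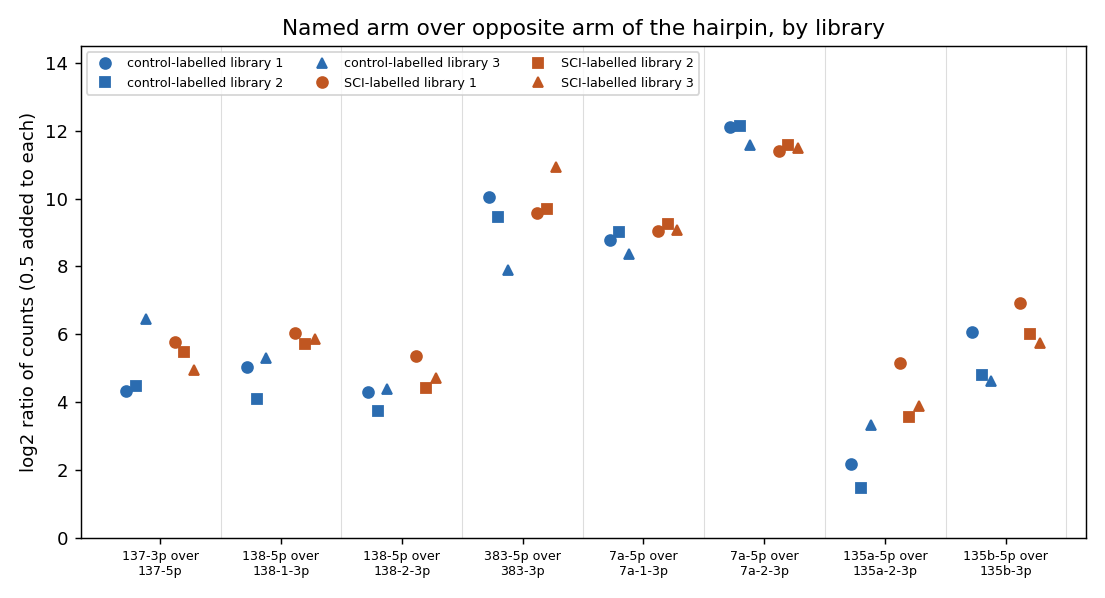
Log2 ratio of named-arm to opposite-arm counts (0.5 added to each) in each library, for the 8 hairpins with at least 30 reads of the opposite arm. The SCI-labelled libraries are above all control-labelled ones at miR-135a-2, both miR-138 hairpins and miR-7a-1, and below them at miR-7a-2. Both ratios of miR-138 use the same named-arm counts, as do both of miR-7a. These counts, and those of miR-135a-5p, can come from more than 1 hairpin.

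Of 13 listed rows of other neuron-enriched miRNAs, 6 were higher by edgeR, miR-9-5p and miR-218-5p the most abundant. Another 1 was lower (miR-212-3p) and 6 did not pass, against 16.3% higher and 23.1% lower over all rows tested. Their median log2 change was 0.62, and 9 of the 13 were above 0, against 294 of all 614 rows tested. The 13 are not independent miRNAs, because both arms of miR-124, miR-132, miR-212, miR-9 and miR-129 are listed as separate rows. Those called higher include miR-132-5p (log2 1.53) and miR-212-5p (0.86), whose other arms miR-132-3p and miR-212-3p were at -0.09 and -0.91. The rows of miR-129 were all above 0. Among those below 0, miR-124-3p had a log2 change of -0.52, miR-9-3p -0.46 and miR-132-3p -0.09, and none of these 3 passed. miR-124-3p, an abundant miRNA of neurons, was at 660, 725 and 2008 CPM in the control-labelled against 798, 756 and 812 CPM in the SCI-labelled libraries, and control-labelled library 3 was above the other 5. The list's summed level was 71104 to 100785 CPM in the control-labelled against 132140 to 144906 CPM in the SCI-labelled libraries, but miR-9-5p alone had means of 64270 and 96125 CPM and made up most of the sum. The lists for glia and vessels had no member past the test: 0 of 5 for oligodendrocytes (median -0.02), 0 of 3 for astrocytes (-0.10) and 0 of 2 for endothelium (-0.35). Summed levels in the 2 groups overlapped, at 10222 to 13828 and 11804 to 12570 CPM for oligodendrocytes. All 4 erythroid miRNAs in the table (miR-451a and miR-486a-5p the most abundant) were lower, with summed levels of 9426 to 32718 CPM in the control-labelled against 2481 to 5231 CPM in the SCI-labelled libraries. Within the injury list miR-21a-3p was at 0 in SCI-labelled libraries 1 and 2. The part of blood and leukocyte RNA in the members' differences was not tested.

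The profiles of the members over the 6 libraries were compared with those of 262 other miRNAs of at least 50 CPM, by the root mean square difference of log2 CPM after removal of each row's mean. Nearest to miR-137-3p were miR-124-5p (0.14) and miR-344-3p (0.21), both of them also high in control-labelled library 3, at 106 CPM for miR-124-5p against 40.5 and 36.8 CPM in libraries 1 and 2. Nearest to miR-138-5p were miR-3068-5p (0.084) and miR-384-5p (0.092), and to miR-153-3p miR-34a-5p (0.12) and miR-490-3p (0.17). For miR-135a-5p they were miR-664-3p (0.14) and miR-384-3p (0.15), and for miR-135b-5p miR-376b-5p (0.11) and miR-381-3p (0.16). For miR-383-5p they were miR-328-3p (0.15) and miR-433-3p (0.16), and for miR-7a-5p miR-382-3p (0.098) and miR-541-5p (0.10). Among the members, miR-138-5p and miR-135a-5p were the closest pair (0.17), followed by miR-383-5p and miR-7a-5p (0.21), while miR-135a-5p and miR-135b-5p were 0.44 apart. These distances describe 6 libraries in which the group difference is shared by many rows.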

How the data were processed

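The authors made small RNA libraries from 3 µg of total RNA per sample with the NEBNext kit, per the labels' protocols. Mapping used Bowtie and mm10, per the submitters' processing notes, and no source here states the counting rules or the handling of reads that match several miRNAs. The counts of miR-142b and miR-142a-3p are identical in every library, and those of miR-126b-3p and miR-126a-5p nearly so. The same reads were therefore probably counted in more than 1 row in such cases. Whether miR-7a-5p and miR-7b-5p share reads was not tested. The deposited table holds raw read counts per miRNA and a TPM column that the authors computed, which equals unscaled CPM within 2.74e-05. Columns were assigned by the column name in each sample's description. Library numbers are those of the sample titles, and for the control-labelled libraries the column names carry other numbers.

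Counts went through filterByExpr (minimum count 10), TMM scaling and the robust quasi-likelihood test of edgeR 4.0.16 (R 4.3.3) on group alone, with Benjamini-Hochberg adjustment over 614 rows at 0.05. All 7 members passed the filter. SE was the absolute log2 change divided by the root of F. Arm ratios used counts plus 0.5 where the opposite arm had at least 30 reads in all. DESeq2 1.42.0 and limma 3.58.1 were alternatives. limma voom was run with quality weights, by which libraries can count unequally in the fit. The steps were tested on simulated data. Members and lists were chosen with earlier results of these data known. Named were all members, their opposite arms and relative, the most abundant rows of the blood, muscle, injury and neuron lists, and the 2 nearest profiles of each member. The oligodendrocyte, astrocyte and endothelial lists are led by miR-219a-2-3p and miR-219b-5p, miR-29a-3p and miR-29b-3p, and miR-126a-3p and miR-126a-5p. miR-212-3p, miR-124-3p, miR-9-3p, miR-132-3p and miR-21a-3p were named after their values were seen.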

Additional observations from a re-analysis of the deposited data

How the results depend on the processing

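All 7 members kept a positive log2 change in the 19 alternatives. The number past the test, 4 by edgeR, was 2 with the library total only, 2 with limma on log2 TPM (constants of 1, 0.1 and 10, and 1 with no filter) and 1 to 6 when single libraries were left out. Rows higher over the whole table were 75 of 614 with the library total only. With limma on log2 TPM they were 79 to 81 of 614, and 69 of 1411 with no filter. Upper quartile scaling shifted all log2 changes by a median of 0.12. Over all 614 rows tested, 100 were higher and 142 lower. Single omissions gave 54 to 152 higher and 87 to 179 lower, of 627 to 641 rows tested. The counts were 54 and 87 without SCI-labelled library 3, and 63 higher without SCI-labelled library 1. Without control-labelled library 3, 152 were higher. Replicate numbers of the sample titles gave no sign of pairing, but so few libraries cannot exclude it. Deviations of same-numbered libraries correlated at -0.23, 0.14 and -0.15, and 2 of 6 libraries correlated best with their own number. The highest correlation was 0.29, of control-labelled 3 with SCI-labelled 1. Libraries whose column names share a number correlated at 0.12 (control-labelled 1 with SCI-labelled 2) and 0.07 (control-labelled 2 with SCI-labelled 3). With a replicate block by title number, 2 members passed, while 78 of 614 rows were higher. In that fit miR-135a-5p had log2 0.92 (edgeR adjusted p = 0.0508) and miR-383-5p 0.60 (0.0835).

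Differences in arm ratio kept their sign over single omissions except at miR-137, with ranges of 0.70 to 1.32 for miR-138-1, 0.43 to 0.89 for miR-138-2, 0.32 to 1.39 for miR-383, 0.22 to 0.55 for miR-7a-1, -0.63 to -0.35 for miR-7a-2, 1.41 to 2.39 for miR-135a-2 and 0.71 to 1.51 for miR-135b. That of miR-137 changed sign without control-labelled library 1 (-0.062), with a range of -0.062 to 1.00 over single omissions. Alternatives for opposite arms were added after the data were seen. miR-138-2-3p turned to 0.053 with the upper quartile, 0.012 with limma voom, and 0.11 and 0.063 without control-labelled library 3 and SCI-labelled library 1. miR-7a-1-3p turned to -0.068 with the library total, -0.041 with limma at 1 (also with no filter) and 0.1, -0.035 at 10, and -0.082 without control-labelled library 2 (-0.082 to 0.17 over single omissions). None of these passed. The miRNAs with fewest reads limit the arm ratios of miR-383 and miR-135b.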
